A study of Ovis aries with 14 samples.

Results

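The dioxin receptor pathway and enzymes that clear foreign compounds were followed in the hypothalamus of fetal sheep given triclosan. The 6 genes were AHR, ARNT, ARNT2, CYP1A1, CYP3A24 and GSTA1. Every probe that the array design or the supplied gene table gives one of these names was taken, whatever its signal, which came to 9 of the 15008 probes on the array and 6 of its 1025 named genes. All 9 passed the filter on dim probes, which kept 13738 probes.

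Fetuses of about 130 days of age received an intravenous infusion of vehicle (n = 4) or triclosan at 250 µg per day (n = 4) for 2 days, called the direct arm here. For the indirect arm, ewes received an infusion over the same time of vehicle (n = 2 independent arrays) or of triclosan at 100 µg/kg per day (n = 3). All 4 groups are bulk fetal hypothalamus, and the doses and routes differ between the arms. The fetuses of the direct arm carried chronic catheters, and the vehicle is not described. The labels do not say whether each array stands for its own ewe, so p-values measure only the spread between these arrays, which may be partly technical.

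A further maternal vehicle array, replicate 3, was left out. At all 15744 spots its processed signal was 0.6 times that of replicate 1 plus 0.4 times that of replicate 2, with a largest relative residual of 8.09e-11. Of the 13 arrays used, those with fetal triclosan had median processed signals from 236.1 to 307.4. The medians of the fetal vehicle arrays ran from 315.4 to 380.0, those of the maternal vehicle arrays from 350.9 to 353.9 and those of the maternal triclosan arrays from 284.3 to 375.8. The share of spots well above background was 83.3% to 90.1% per array. Of 12 hypothalamic neuron markers 9 were on the array, and all 9 were well above background on some array.

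AHR, the aryl hydrocarbon or dioxin receptor, is a transcription factor that waits in the cytosol in a complex with the chaperone HSP90 until a ligand such as a dioxin binds it. It then enters the nucleus, pairs with ARNT and switches on genes of foreign compound metabolism, of which CYP1A1 is the classic example. ARNT is also the partner of the hypoxia-inducible factors. Its close relative ARNT2 is abundant in neurons and, as the partner of SIM1, is needed for the neurosecretory cells of the hypothalamus to form. CYP3A24 is a sheep member of the CYP3A family of drug and steroid oxidising enzymes. GSTA1 is a glutathione S-transferase of the alpha class, which joins reactive compounds to glutathione. Triclosan is a chlorinated phenol used as an antibacterial agent.

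The receptor and its partners were read by 5 probes, each a 60-base strand cut from a partly sequenced coding region, with 45.0% G or C. They are shown because the only member difference past the test came from ARNT2, and because the ARNT and ARNT2 probes come in pairs that share 59 of 60 bases. Capitals mark the bases that both probes of a pair hold, and the AHR probe, which has no second probe, is in lower case.
AHR: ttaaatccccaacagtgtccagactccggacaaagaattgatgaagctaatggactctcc
ARNT probe a: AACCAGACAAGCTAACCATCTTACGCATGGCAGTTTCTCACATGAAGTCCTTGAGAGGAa
ARNT probe b: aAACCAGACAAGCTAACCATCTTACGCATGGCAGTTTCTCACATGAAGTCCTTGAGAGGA
ARNT2 probe a: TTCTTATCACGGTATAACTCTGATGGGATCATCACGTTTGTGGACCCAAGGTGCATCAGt
ARNT2 probe b: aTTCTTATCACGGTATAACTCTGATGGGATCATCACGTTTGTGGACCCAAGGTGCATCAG
Each pair is offset by 1 base, so its probes read almost the same stretch of the transcript from separate spots. The 2 GSTA1 probes share 30 of 60 bases. CYP1A1 and CYP3A24 each had a single probe.

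Levels are given as relative signal, the log2 of the processed signal minus the 75th percentile of its array. A value of -5 therefore lies 5 log2 units below that percentile. Relative signals are compared between arrays for one probe and never between probes.

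**Figure D1:**
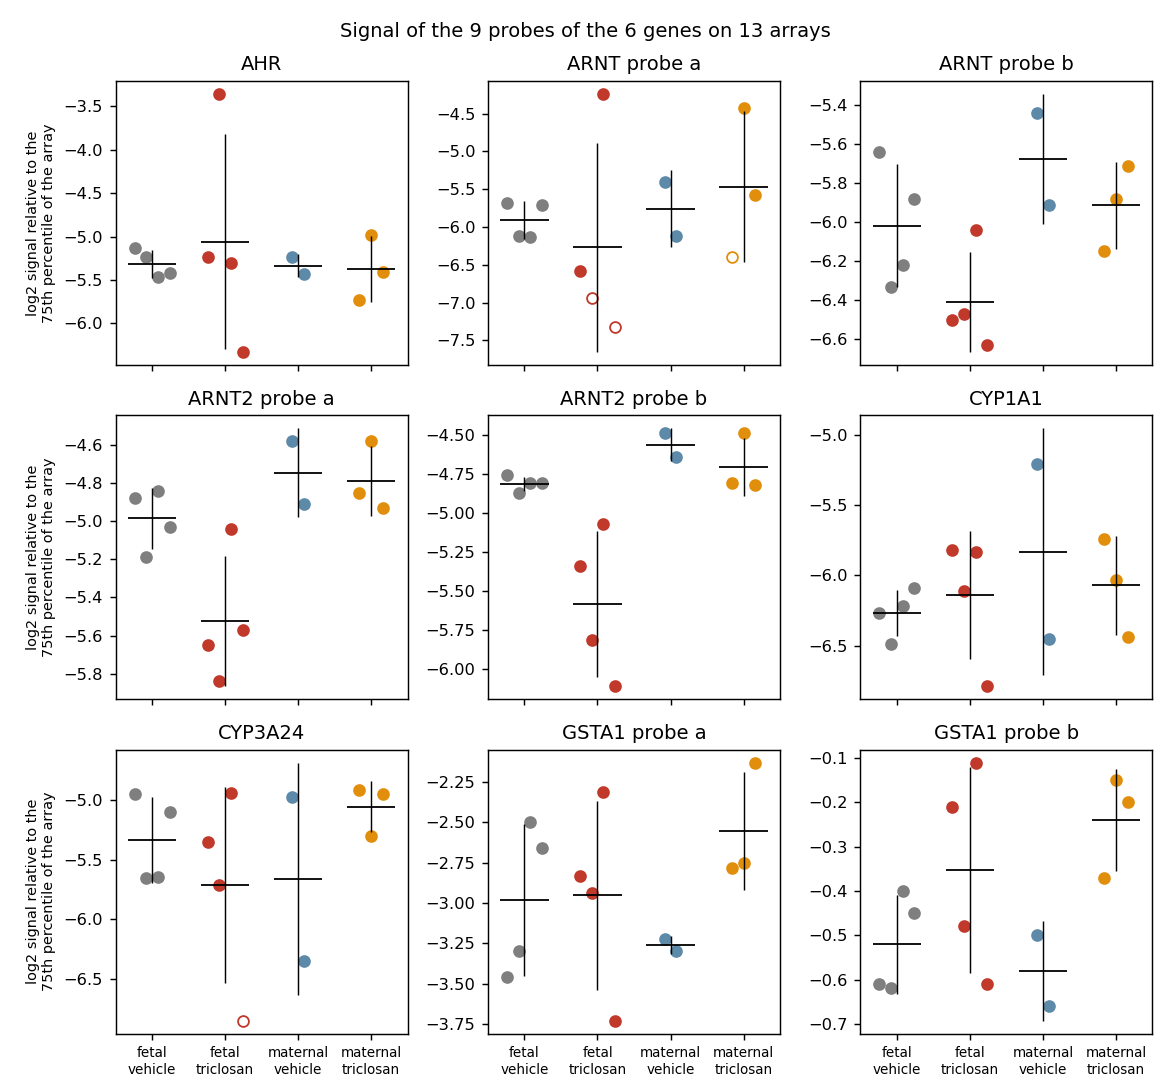
Relative signal (log2 processed signal minus the 75th percentile of the array, vertical axis) of the 9 probes on 13 arrays, with a point for each array, a horizontal line at the group mean and a vertical line of 1 SD; open points were not well above background. The 4 fetal triclosan arrays of ARNT2 probe b lie between -6.11 and -5.07, all below the fetal vehicle arrays at -4.87 to -4.76.

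ARNT2 was lower after triclosan infusion into the fetus. On probe b the relative signal was -4.76, -4.87, -4.81 and -4.81 on the fetal vehicle arrays and -5.34, -5.81, -5.07 and -6.11 on the fetal triclosan arrays. All 4 treated arrays lay below all 4 vehicle arrays, and the treated arrays were the more scattered (SD 0.47 against 0.05). The log2 difference was -0.77 ± 0.20 (SE, 4 against 4 arrays; 95% interval -1.20 to -0.34), a 1.71-fold lower signal, with an adjusted p of 0.0208 by limma's moderated test after Benjamini-Hochberg adjustment over all 13738 probes. In signal units probe b read 55.6 to 67.9 with vehicle and 20.1 to 48.4 with triclosan. On the arrays of this arm the dimmest spots to count as well above background read 11.5 to 14.9, depending on the array.

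ARNT2 probe a pointed the same way but missed the threshold. Its relative signal was -4.88, -5.19, -4.84 and -5.03 with fetal vehicle and -5.65, -5.84, -5.04 and -5.57 with fetal triclosan. The groups overlapped through fetal triclosan replicate 3 alone, whose -5.04 lay above the lowest vehicle array. The log2 difference was -0.54 ± 0.17 (SE; 95% interval -0.92 to -0.16; limma adjusted p = 0.0506). Without that replicate it was -0.70, with an adjusted p of 0.00882.

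In the direct arm 1 of the 9 probes passed the test, against 18.2% of all probes tested, of which 11.4% were lower and 6.82% higher. At an unadjusted p under 0.05 it was 2 of 9, both probes of ARNT2, against 33.1%. ARNT2 probe b was also the only one of the 9 whose direct groups did not overlap, as was the case for 21.9% of all probes (12.6% lower and 9.3% higher). The count of members called is thus no larger than the background of this contrast.

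Within the slides that held both direct groups, ARNT2 was lower in each comparison. The differences of probe b were -0.58, -0.94 and -0.26 on slides 1, 2 and 3, and those of probe a were -0.77, -0.65 and -0.11. A fit with the slide as a block, to which fetal triclosan replicate 4 adds nothing because it has no partner on its slide, gave probe b -0.58 (limma adjusted p = 0.0464) and probe a -0.50 (0.101).

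The size of the ARNT2 difference rested on the processing. Probe b stayed below 0 in all 25 other settings and lost the threshold in 6 of them. It fell by only 0.17 with normexp background correction (limma adjusted p = 0.556), where probe a gave -0.08, and gave -0.32 in the authors' value table (0.0639). The normexp setting adds an offset of 50 signal units, beside processed signals of 20.1 to 76.1 on probe b. Such an offset shrinks log2 differences of dim probes, and its part here was not tested. The call also ended when the fit held only the 2 direct groups (0.0601), and without fetal vehicle replicate 1 (0.0521), fetal vehicle replicate 3 (0.0568) or fetal triclosan replicate 2 (0.0517). Without fetal triclosan replicate 4, the lowest array, the difference was -0.59 and still past the threshold.

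**Figure D2:**
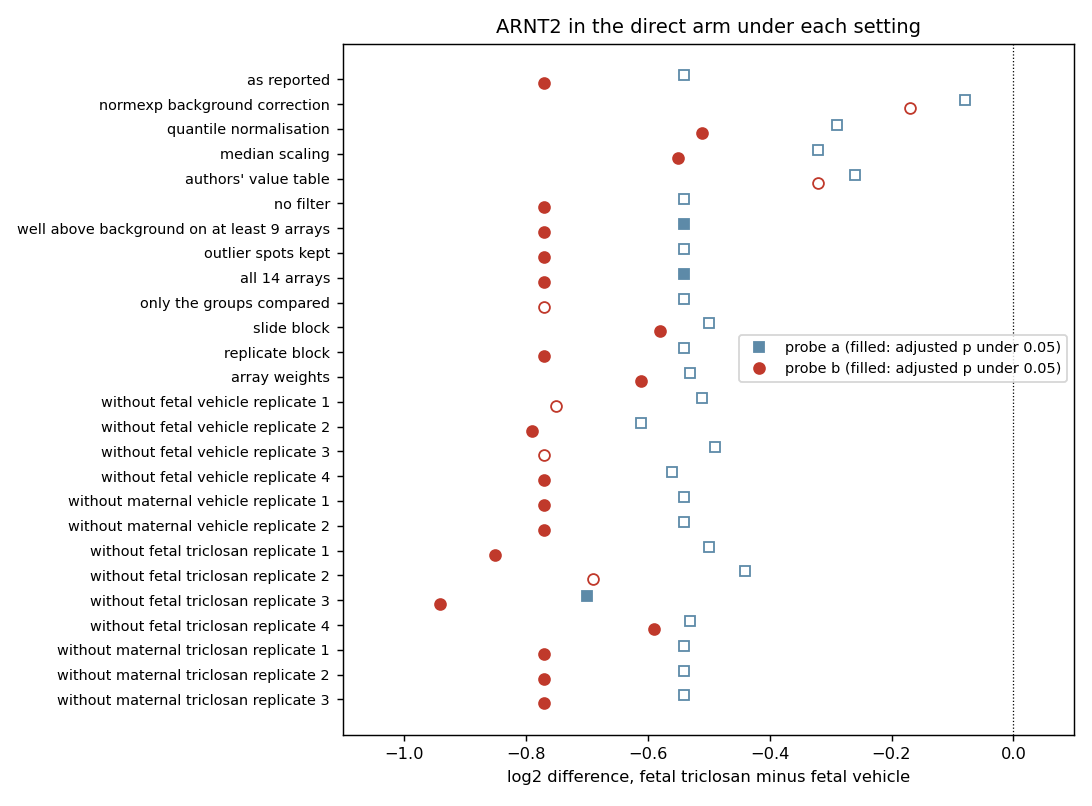
Log2 difference between fetal triclosan and fetal vehicle (horizontal axis) for ARNT2 probe a (squares) and probe b (circles) as reported and in the 25 other settings; filled symbols have a limma adjusted p under 0.05. All values lie below 0, from -0.94 for probe b without fetal triclosan replicate 3 to -0.08 for probe a with normexp background correction.

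Both ARNT2 probes lie in the decile 2 of all probes by mean signal, where decile 1 is the dimmest, and probes of that brightness were mostly lower in the direct arm. Its 1374 probes had a median log2 difference of -0.27, with 9.83% lower and 1.38% higher at the threshold. Decile 10, the brightest, had a median of 0.24, and all tested probes together had -0.09. The median of all probes moved with the scaling, to 0.13 when the array median replaced the 75th percentile, and probe b of ARNT2 was then -0.55 (limma adjusted p = 0.0476). The part of brightness in the ARNT2 difference was not tested.

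**Figure D3:**
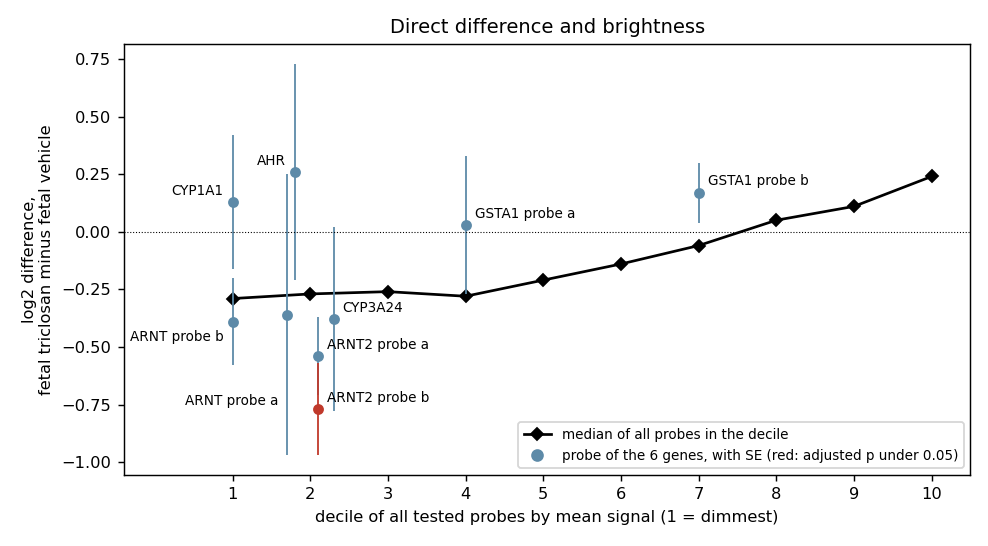
Log2 difference between fetal triclosan and fetal vehicle (vertical axis) against the decile of mean signal (horizontal axis, 1 is the dimmest); diamonds are medians of all tested probes in a decile, and circles are the 9 probes with their SE. The medians run from -0.29 in decile 1 to 0.24 in decile 10, and ARNT2 probe b at -0.77 lies below the -0.27 of its decile.

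After infusion into the ewe ARNT2 showed no change past the test. Probe b read -4.49 and -4.64 on the maternal vehicle arrays and -4.81, -4.49 and -4.82 on the maternal triclosan arrays. The groups overlapped, and the log2 difference was -0.15 ± 0.25 (SE; 95% interval -0.70 to 0.41; limma adjusted p = 0.862). Probe a gave -0.04 ± 0.22 (95% interval -0.53 to 0.45; 0.964). Both intervals include falls of up to 0.53, so a change as large as some of those above is not shut out by 2 against 3 arrays.

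The arms were not shown to differ for ARNT2. The direct minus the indirect difference was -0.62 ± 0.32 for probe b (SE; 95% interval -1.33 to 0.08; limma adjusted p = 0.38) and -0.50 ± 0.28 for probe a (0.409). The order of the group means on probe b was fetal triclosan at -5.58, fetal vehicle at -4.81, maternal triclosan at -4.71 and maternal vehicle at -4.56. The 2 lowest differed as given above, whereas the difference of 0.25 ± 0.24 between the 2 vehicle groups did not pass the test (SE; limma adjusted p = 0.999). That SE draws on the spread of all 4 groups, and the SD was 0.05 in fetal vehicle, 0.11 in maternal vehicle and 0.47 in fetal triclosan. Within slides 1 and 2 the vehicle groups differed by 0.27 and 0.23.

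The paired ARNT2 probes agreed closely on most arrays. The difference between probe a and probe b had an SD of 0.22 over 13 arrays, and 0.12 without fetal triclosan replicate 4, where probe a read 29.2 and probe b 20.1 signal units. For 83 pairs of probes offset by 1 base in the 3 dimmest deciles, the median SD was 0.51, and 72 of them had a larger SD than ARNT2.

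**Figure D4:**
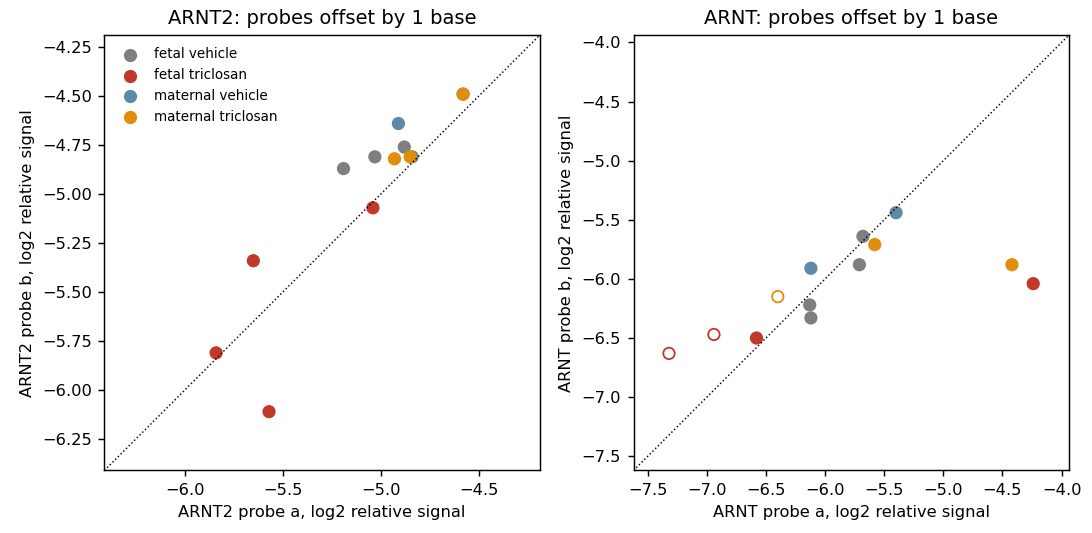
Relative signal of probe b (vertical axis) against probe a (horizontal axis) for ARNT2, left, and ARNT, right, with a point for each of 13 arrays and a dotted line where the probes are equal; open points had a probe not well above background. The ARNT2 pair has an SD of 0.22 between probes, and the ARNT pair has 0.70, with fetal triclosan replicate 3 and maternal triclosan replicate 2 far to the right of the line.

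ARNT, the general partner, did not pass the test in any contrast. Probe b read -5.64, -6.33, -6.22 and -5.88 with fetal vehicle and -6.50, -6.47, -6.04 and -6.63 with fetal triclosan. Of the 4 treated arrays 3 lay below every vehicle array, and replicate 3 lay among them. The direct log2 difference was -0.39 ± 0.19 (SE; 95% interval -0.82 to 0.03; limma adjusted p = 0.184).

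ARNT probe a gave much the same mean difference with far more scatter, at -0.36 ± 0.61 (SE; limma adjusted p = 0.719). Fetal triclosan replicate 3 read 86.0 signal units on probe a and 24.8 on probe b, and maternal triclosan replicate 2 read 69.2 and 25.2. Probe a was not well above background on fetal triclosan replicates 2 and 4 and maternal triclosan replicate 1. The SD between the ARNT probes was 0.70, and 0.52 without fetal triclosan replicate 3. In the indirect arm the probes had opposite signs, 0.29 ± 0.78 for a and -0.24 ± 0.25 for b (limma adjusted p = 0.917 and 0.745). Within slides the direct differences of probe b were -0.87, -0.13 and 0.01 on slides 1, 2 and 3.

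AHR itself did not differ between groups beyond its scatter. Its signal was 52.3, 42.9, 42.3 and 44.0 with fetal vehicle and 42.3, 160.9, 41.1 and 17.2 with fetal triclosan. The treated group held both the highest array of all 13, replicate 2, and the lowest, replicate 4, and its other arrays read close to the lowest vehicle arrays. The direct log2 difference was 0.26 ± 0.47 (SE; 95% interval -0.78 to 1.30; limma adjusted p = 0.741), and it turned to -0.31 without fetal triclosan replicate 2. That array's spot carried no outlier mark and was well above background. With maternal vehicle AHR read 45.1 and 40.2, and with maternal triclosan 33.5, 46.9 and 42.1, so the indirect groups overlapped. The indirect difference was -0.04 ± 0.61 (95% interval -1.38 to 1.31; limma adjusted p = 0.987). The width of this interval draws on the spread of all 4 groups. The SD was 0.13 with maternal vehicle and 0.38 with maternal triclosan, but 1.24 with fetal triclosan.

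CYP1A1, the enzyme whose transcript is the usual readout of AHR activation, showed no change past the test in either arm. Its signal was 23.8, 18.0, 25.1 and 27.7 with fetal vehicle and 28.3, 23.8, 28.6 and 12.6 with fetal triclosan. All of these are near the low end of the scale, close to the dimmest spots of each array that count as well above background, although the probe was well above background on all 13 arrays. The log2 difference was 0.13 ± 0.29 (SE; 95% interval -0.50 to 0.76; limma adjusted p = 0.788), an interval whose upper end is under a doubling. Within slides 1, 2 and 3 the direct differences were 0.44, 0.38 and 0.32, and without fetal triclosan replicate 4, which lay alone on slide 5, the difference was 0.35 (limma adjusted p = 0.397).

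Among the arrays of the indirect arm CYP1A1 read 46.1 and 19.8 with maternal vehicle and 33.3, 22.7 and 20.7 with maternal triclosan. The treated arrays lay between the vehicle arrays. The log2 difference of -0.24 ± 0.37 (SE; 95% interval -1.05 to 0.57; limma adjusted p = 0.839) rested on the first vehicle array and was 0.38 without it.

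CYP3A24 showed no change past the test either. It read 59.4, 32.3, 37.4 and 54.8 with fetal vehicle and 39.3, 31.5, 52.8 and 12.0 with fetal triclosan, where the last array was not well above background. The groups overlapped, and the log2 difference of -0.38 ± 0.40 (SE; 95% interval -1.25 to 0.50; limma adjusted p = 0.55) became 0.00 without that array. With infusion into the ewe CYP3A24 read 54.6 and 21.4 with vehicle and 59.1, 37.6 and 58.1 with triclosan. The difference was 0.60 ± 0.51 (95% interval -0.53 to 1.73; limma adjusted p = 0.701) and was -0.09 without the lower vehicle array.

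GSTA1 read higher on every treated array of the indirect arm than on its vehicle arrays, though it did not pass the test there. Probe a read 183.4 and 176.5 with maternal vehicle and 258.7, 221.0 and 410.3 with maternal triclosan. Probe b read 1204.2 and 1096.3 with maternal vehicle and 1373.6, 1337.8 and 1561.3 with maternal triclosan. The lack of overlap holds on both probes. Such a lack was seen for 39.1% of all probes in this arm, of which 19.9% lay higher and 19.1% lower, so it is common with 2 arrays against 3.

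The indirect log2 difference of GSTA1 was 0.71 ± 0.39 for probe a (SE; 95% interval -0.16 to 1.57; limma adjusted p = 0.575) and 0.34 ± 0.17 for probe b (95% interval -0.02 to 0.71; 0.544). It was positive within both slides that held the 2 indirect groups, at 0.44 and 0.55 for probe a and 0.13 and 0.51 for probe b. No probe of any gene passed the test in the indirect arm (0%), where limma gave 1324 probes, 9.64%, an unadjusted p under 0.05, and 0 of the 9 members reached even that.

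In the direct arm GSTA1 read 167.0, 165.0, 329.8 and 299.2 on probe a with fetal vehicle and 225.7, 215.3, 328.2 and 104.9 with fetal triclosan. The groups overlapped, and replicate 4 of the treated group was the lowest of these arrays. The log2 difference was 0.03 ± 0.30 (SE; limma adjusted p = 0.957). Probe b gave 0.17 ± 0.13 (95% interval -0.12 to 0.45; 0.403). Vehicle replicates 3 and 4 shared slide 3 and had the highest vehicle signals on probe a. Within slides 1, 2 and 3 probe a gave 0.63, 0.36 and 0.27 and probe b 0.40, 0.14 and 0.31. In the fit with a slide block probe a passed the threshold at 0.40 (limma adjusted p = 0.0257) and probe b did not at 0.28 (0.101). Probe b passed with median scaling at 0.39 (0.0405).

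**Figure D5:**
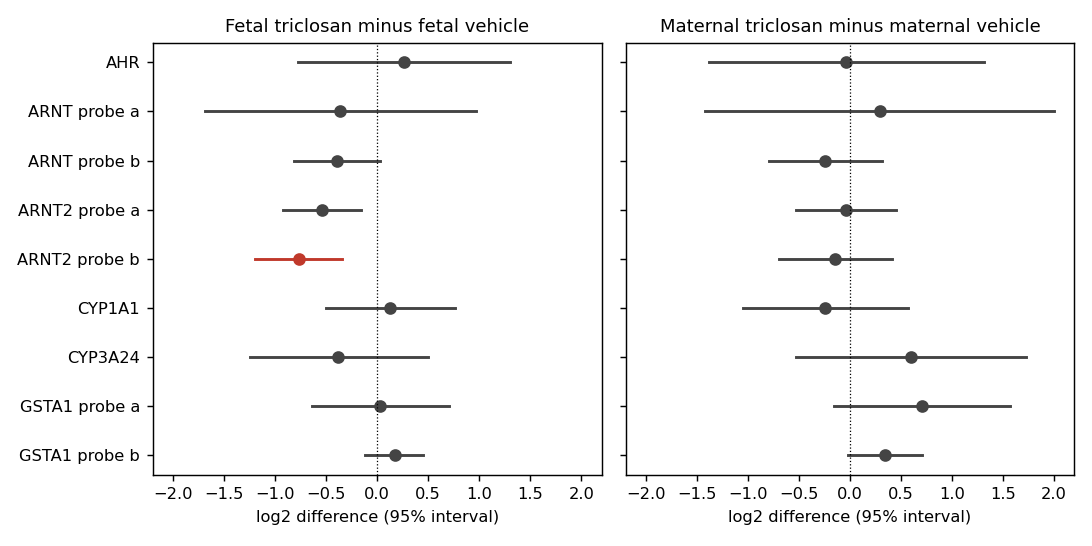
Log2 difference between triclosan and vehicle (horizontal axis) with its 95% interval for the 9 probes, in the direct arm (left, 4 against 4 arrays) and the indirect arm (right, 3 against 2 arrays); red marks a limma adjusted p under 0.05. ARNT2 probe b at -0.77 is the only probe in red, and the indirect intervals all include 0.

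None of the 9 probes passed the test for a difference between the arms or between the vehicle groups, and neither did any other probe. The unadjusted p was under 0.05 for 14.7% of all probes in the first of these limma contrasts and 3.28% in the second, and for 0 of the members in both.

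Among other genes of the pathway, the chaperone that holds AHR in the cytosol was lower in the direct arm. HSP90AA1 read 3.32, 3.44, 3.35 and 3.45 in relative signal with fetal vehicle and 2.43, 2.72, 2.58 and 2.61 with fetal triclosan. The groups were far apart for their spread, and the log2 difference was -0.80 ± 0.13 (SE; limma adjusted p = 0.00429). It kept the threshold in all 12 alternative settings and all 13 fits that left out an array, between -0.99 and -0.59, and was -0.88, -0.72 and -0.82 within slides 1, 2 and 3.

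With infusion into the ewe HSP90AA1 read 3.88 and 3.73 with vehicle and 2.80, 2.65 and 3.22 with triclosan. These groups did not overlap either, as was the case for 39.1% of all probes in this arm (19.1% lower) and 21.9% in the direct arm (12.6% lower). The log2 difference was -0.92 ± 0.17 (SE; -1.08 and -1.09 within slides 1 and 2), with an unadjusted p of 0.000179 and a limma adjusted p of 0.246. It passed with all 14 arrays (0.0356), where the mixed array counts as a vehicle sample of its own, and with array weights (0.0141). The arms differed by 0.11 ± 0.21 (limma adjusted p = 0.812).

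In all, 30 of 207 listed genes of the AHR complex, ARNT partners, AHR targets, enzymes, transporters, antioxidant genes, SIM1 neurons and hypoxia targets were tested, with the brightest probe for each. Leaving out the 6 members, 3 of 24 rose and 1 fell in the direct arm, beside 6.82% and 11.4% of all probes, with a median log2 difference of -0.04 beside -0.09 for all probes. The genes called were bright, with relative signals of 1.87 or more on every array. In deciles 8, 9 and 10 of brightness, 9.75%, 13.6% and 27.7% of probes were higher in the direct arm and 6.99%, 5.17% and 1.38% lower. The part of brightness in these counts was not tested. In the indirect arm 0 of 24 passed, with a median of -0.01 beside 0.01. The lists were chosen with earlier results of these data known. No gene of the list of xenobiotic receptors, such as the pregnane X receptor, was found on the array by name.

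The 3 that rose were ABCG2, which pumps drugs back into the blood at brain vessels, TXN, the redox protein thioredoxin, and MT3, the metallothionein of the brain. ABCG2 differed by 0.46 ± 0.14 (SE; limma adjusted p = 0.0399). TXN differed by 0.56 ± 0.16 (0.0375), and its second probe by 0.60 (0.00997). MT3 differed by 0.71 ± 0.19 (0.0253), and its second probe by 0.71 (0.0393). All 3 calls were less stable than that of HSP90AA1, since they were kept in 8, 7 and 8 of 12 alternative settings and in 4, 3 and 10 of 13 fits that left out an array. All 3 were lost with quantile normalisation, the authors' value table and only the groups compared. A slide block ended the calls of ABCG2 (0.39, limma adjusted p = 0.0995) and MT3 (0.61, 0.0696) and kept that of TXN (0.47, 0.0428).

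Other drug transport and metabolism genes stayed short of the threshold on their brightest probe. ABCB1, the P-glycoprotein efflux pump, differed by -0.49 ± 0.16 in the direct arm (SE; limma adjusted p = 0.0548), and its second probe passed at -0.66 (0.0144). The oxidase XDH gave -1.03 ± 0.42 (0.115) on a probe well above background on all arrays and -0.15 on another that was so on 5. PON2, a lactonase, gave 0.15 (0.524), and UGT1A9, a glucuronosyltransferase, -0.29 (0.607). The second probe of UGT1A9 had the opposite sign, at 0.86 (limma adjusted p = 0.378).

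Of the genes that pair with ARNT, the hypoxia factor HIF1A gave 0.40 ± 0.14 in the direct arm (SE; limma adjusted p = 0.07) and its relative EPAS1 -0.37 ± 0.17 (0.156). Their second probes gave 0.38 (0.104) and -0.45 (0.153). Of hypoxia targets, the vessel growth factor VEGFA gave -0.32 (0.553) and the glycolytic enzyme LDHA -0.18 (0.744), and none of the 4 tested passed. Of the AHR target list, IL1B, an inflammatory cytokine, gave -0.22 (0.218), and 0 of 3 passed. Of the antioxidant list, mitochondrial superoxide dismutase SOD2 gave 0.51 (0.107) and the ferritin chain FTH1 0.23 (0.224), with another FTH1 probe past the threshold at 0.62 (0.0177). The 2 tested peptides of neurons that depend on ARNT2 and SIM1 did not pass, with somatostatin (SST) at 1.14 ± 0.52 (0.148) and oxytocin (OXT) at 0.43 ± 0.46 (0.552).

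Marker lists of several cell types had array means that did not overlap between vehicle and triclosan, in both arms. Of all single probes, 21.9% did not overlap in the direct arm and 39.1% in the indirect arm. The lists of choroid plexus, pituitary and liver overlapped in both arms, and those of microglia and of meninges overlapped in the direct arm. In the direct comparison the mean relative signal of 5 markers of endothelium and pericytes was -3.37 to -2.94 on the fetal vehicle arrays and -4.56 to -4.07 on the fetal triclosan arrays, with 3 of 5 lower at the threshold. For 4 astrocyte markers it was 0.04 to 0.12 and -1.16 to -0.20, with 1 of 4 lower. For 3 erythroid markers it was -2.73 to -2.34 and -2.03 to -0.87, with 1 of 3 higher. The 9 hypothalamic neuron markers overlapped, at -2.67 to -1.08 and -2.61 to -0.47, with a median log2 difference of 0.90 and 0 of 9 past the threshold. The markers of a list did not all move alike. Among endothelial markers CD93 gave -2.10, KDR -1.57 and FLT1 -1.19, but PECAM1 -0.26 and TIE1 0.06. Among astrocyte markers FGFR3 gave -1.61, GFAP -0.63, EAAT2 -0.30 and AQP4 0.13.

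None of the listed markers passed the test in the indirect arm. Between maternal vehicle and maternal triclosan the list means were -2.43 to -2.00 and -0.88 to -0.56 for neurons, 0.39 to 0.40 and -0.52 to 0.13 for astrocytes, and -3.66 to -2.73 and -2.22 to -1.85 for erythroid markers. They were -2.14 to -2.10 and -2.77 to -2.28 for 3 markers of microglia and leukocytes, and 0.17 to 0.34 and 0.48 to 0.76 for 5 of meninges and connective tissue. These 5 lists did not overlap, whereas those of endothelium and pericytes lay at -3.22 to -3.18 and -3.42 to -3.18. Of the microglia and leukocyte markers ITGAM gave a log2 difference of -0.97, FCER1G -0.03 and CD14 0.04. Of the astrocyte markers EAAT2 gave -1.44, FGFR3 -0.94, GFAP -0.43 and AQP4 0.18. Of the connective tissue markers DCN gave 0.82, TIMP1 0.73, COL3A1 0.28, PTGDS -0.02 and COL1A2 -0.19. All markers of these lists were well above background on some array. In bulk tissue fewer cells of a type and less RNA per cell cannot be told apart, and the part of these shifts in the ARNT2, HSP90AA1, ABCB1 and ABCG2 differences of the direct arm and the HSP90AA1 and GSTA1 differences of the indirect arm was not tested.

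The genes whose relative signal ran most like that of each member over the 13 arrays were picked from 800 named genes well above background on all of them. For ARNT2 probe b these were IGFR1 (r = 0.97), CSNK1E (0.96) and LOC780503 (0.94), with r = 0.86, 0.87 and 0.82 after the group means were taken out. For AHR they were CENP-C (0.93), KIF5B (0.84) and CPE (0.81), with 0.96, 0.88 and 0.87 within groups. AHR itself stood apart on fetal triclosan replicates 2 (-3.36) and 4 (-6.33), whereas all other arrays lay between -5.73 and -4.98. How far its r values rest on those replicates was not tested. For GSTA1 probe b they were ACACA (0.86), CALML4 (0.79) and AGRP (0.76), with 0.80, 0.57 and 0.59 within groups. For CYP1A1 they were KLK1 (0.72), SLIT2 (0.70) and LEP (0.67), with 0.80, 0.79 and 0.84 within groups. These are descriptions over 13 arrays that share slides and scaling, and the highest of 800 values each. ARNT and CYP3A24 had no such ranking, because their brightest probe was not well above background on every array.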

How the data were processed

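Total RNA of fetal hypothalamus was labelled with Cy3 and hybridised to Agilent ovine arrays, per the labels' protocols. The deposited scanner files hold spot intensity values from Agilent Feature Extraction 10.1.1.1, per the file headers, of which the processed signal is background-subtracted but not scaled between arrays. The authors' deposited value table lies on a log2 scale, judged from its fit to each array, with column medians of 8.78 to 8.80; how it was scaled is not stated, and the submitters' processing notes list limma with no role given. The log2 processed signal minus each array's 75th percentile was used. Control spots and spots with outlier marks (250 missing values) were left out, spots of a probe averaged, and probes kept when well above background on at least 3 arrays. limma 3.58.1 in R 4.3.3 estimated 1 mean for each group from 13 arrays, with 9 residual degrees of freedom and 2.36 from the prior. For each probe the 4 groups shared 1 estimate of spread, so scatter in one group widens the intervals of every contrast. P-values are two-sided and adjusted by the Benjamini-Hochberg method over 13738 probes, with a threshold of 0.05. Tables were made with Python 3.11.15, pandas 2.3.3 and numpy 2.4.6, and plots with matplotlib 3.10.9. Tested on simulated data of 13738 probes for the direct contrast, the fit recovered 61% of 100 changes of log2 size 1 and 91% of 100 of size 2. The simulated noise was independent between probes and arrays, without slide or brightness shifts. The changed share was far below the 18.2% called in the direct arm, so these rates need not hold for the real contrast.

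The members and gene lists were chosen with earlier results of these data known. All member probes were named, and the 3 genes most like each member. From the pathway lists came genes past the threshold in either arm, with the 2 smallest unadjusted p per list among the rest. Markers of lists that did not overlap were named where the list held both signs. A gene is represented by its brightest probe. Slides 1 and 2 held the replicates of the same number from every group, slide 3 those numbered 3 except the maternal vehicle array left out, which lay on slide 4, fetal vehicle replicate 4 also on slide 3, and fetal triclosan replicate 4 alone on slide 5. The alternatives were normexp background correction (offset 50), quantile and median scaling, the authors' table, other filters, outlier spots kept, all 14 arrays, only the groups compared, slide and replicate blocks, array weights, and each array left out in turn. The number of arrays limits the precision. No coordinates are given, since the files name no genome build, and a planned motif search of promoters was not run, as no promoter sequence was used here.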

Additional observations from a re-analysis of the deposited data

How the results depend on the processing

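Each result was recomputed in 12 other settings (11 for the difference between the arms) and in 13 fits that left out an array. In the direct arm the probes called, 2498 as reported (937 higher and 1561 lower), came to 1589 with quantile normalisation, 1339 with only the groups compared and 1226 to 2955 with an array left out, lowest without fetal vehicle replicate 3 and 1654 without replicate 1. Median scaling turned the split to 2175 higher and 946 lower. Member probes called, 1 as reported, were 0 with normexp, the authors' table and only the groups compared, 2 with median scaling, at least 9 arrays, all 14 arrays and the slide block, and 0 to 2 with an array left out. Pathway genes called with the members, 5 as reported, were 3 with normexp, 3 with quantile, 8 with median scaling, 1 in the authors' table, 1 with only the groups compared, and 1 to 6 with an array left out (1 without fetal vehicle replicate 3, and 2 when fetal vehicle replicate 1 or fetal triclosan replicate 2 is missing). In the indirect arm, 0 as reported, all 14 arrays gave 12 probes and 1 pathway gene, array weights 356 and 2, and leaving out an array 0 to 2 probes (2 without maternal triclosan replicate 3). For the difference between the arms, quantile normalisation gave 1 probe, all 14 arrays 4, and leaving out an array 0 to 12 probes and 0 to 1 pathway gene, all of the maxima without fetal triclosan replicate 3. The vehicle groups gave 0 to 2 probes with an array left out.

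Signs of members turned as follows, always at a limma adjusted p above the threshold. With normexp, direct differences became 0.22 for ARNT probe a, 0.06 for ARNT probe b and 0.05 for CYP3A24; indirect ones -0.28 for ARNT probe a and -0.21 for CYP3A24; the difference between the arms 0.49 and 0.57 for ARNT probes a and b, 0.31 and 0.23 for ARNT2 probes a and b and 0.27 for CYP3A24; and the vehicle groups 0.45 for AHR and 0.41 for CYP3A24. With the slide block, direct differences became 0.10 for ARNT probe a and 0.03 for CYP3A24, the indirect one 0.10 for AHR, the difference between the arms 0.03 and 0.02 for ARNT probes a and b, and the vehicle groups 0.06 and 0.02 for GSTA1 probes a and b. Quantile normalisation gave 0.21 for ARNT probe b between the arms and 0.02 for AHR between the vehicle groups. Median scaling gave 0.00 for AHR in the indirect arm, and 0.03 for ARNT probe b and 0.00 for GSTA1 probe b between the arms. The authors' table gave 0.03 for AHR in the indirect arm and 0.16 for ARNT probe b between the arms, and array weights -0.05 for ARNT probe a in the indirect arm. The cause was not tested.

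With an array left out, direct values ran from -0.31 to 0.68 for AHR, -0.63 to 0.00 for CYP3A24 and -0.18 to 0.29 for GSTA1 probe a. Indirect values ran from -0.23 to 0.14 for AHR, -0.23 to 0.76 for ARNT probe a, -0.21 to 0.13 for ARNT2 probe a, -0.86 to 0.38 for CYP1A1 and -0.09 to 1.29 for CYP3A24. The difference between the arms ran from -0.27 to 0.72 for AHR, -0.38 to 0.08 for ARNT probe b and -0.26 to 0.99 for CYP1A1. The vehicle groups ran from -0.12 to 0.07 for AHR, -0.21 to 0.51 for ARNT probe a, -0.19 to 1.06 for CYP1A1, -1.01 to 0.37 for CYP3A24 and -0.15 to 0.01 for GSTA1 probe b.

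The labels do not say that replicate numbers pair the arrays, though numbers 1 to 3 also mark shared slides. The deviations of same-numbered arrays from their group means correlated above 0.1 in 8 of 16 pairs (median 0.10). In the direct arm this held for the 3 pairs on a shared slide (0.131, 0.118 and 0.265) and not for the pair numbered 4 (-0.17), so the numbers were not taken as a pairing. A replicate block gave 2824 direct calls and -0.77 for ARNT2 probe b (limma adjusted p = 0.0271), turned AHR in the indirect arm to 0.11, and changed no call of a member. Signal over background limits AHR, ARNT, ARNT2, CYP1A1 and CYP3A24, all in the 2 dimmest deciles.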

Other observations

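A close neighbour of GSTA1 followed the same order of groups in the indirect arm. The array names it GSTA1-1, and in the RefSeq gene order of assembly ARS-UI_Ramb_v3.0 it is parted from GSTA1 by 2 other entries. It was chosen after its values were seen. Probe a read 56.2 and 51.8 with maternal vehicle and 90.2, 77.1 and 203.2 with maternal triclosan, a log2 difference of 1.09 ± 0.41 (SE; limma adjusted p = 0.463). Probe b differed by 0.92 ± 0.26 (0.384), and on both probes the 3 treated arrays lay above both vehicle arrays. That order was seen for 19.9% of all probes in the indirect arm. In this arm neither probe passed the threshold in any of 25 other settings, and probe b gave -0.00 with normexp background correction. In the direct arm the probes gave 0.58 and 0.32 (limma adjusted p = 0.23 and 0.296), and probe a passed in 1 of 25 other settings, the slide block (0.78, 0.0491). Whether the probes of these close relatives read each other's transcripts was not tested.

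A probe with no gene name, TC7783, is described in the files as similar to an aryl hydrocarbon receptor of another mammal, and it was also picked after its values were seen. It read 27.3, 26.8, 20.8 and 32.5 with fetal vehicle and 33.8, 46.7, 30.1 and 27.8 with fetal triclosan. On the relative scale the treated arrays lay at -5.76 to -5.14 and the vehicle arrays at -6.49 to -5.86, without overlap. The log2 difference was 0.56 ± 0.18 (SE; limma adjusted p = 0.0498), and 5 of 25 other settings kept the call. In the direct arm 18.2% of all probes passed the test and 21.9% did not overlap. The named AHR probe gave 0.26 ± 0.47 in the same contrast.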
